A study of Mus musculus with 9 samples.

Results

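Macrophage self-renewal and identity depend on a small set of transcription factors, and 9 of their genes are described here in alveolar macrophages, which live in the air spaces of the lung. They are Id2, Bhlhe40, Bhlhe41, Klf2, Klf4, Myc, Spi1, Cebpb and Maf. The rule names the genes and uses no measured value, though the set was drawn up with earlier results of these data known, and all 9 were among the 12003 genes of the expression table. Poly(A) RNA had been sequenced from cells washed out of the airways and selected with beads against CD11c, a surface integrin carried by alveolar macrophages and by dendritic cells. Vhl knockout mice carried both floxed Vhl alleles and 1 CD11c-Cre transgene, labelled Vhl(flox/flox) / CD11c (cre/+). Floxed controls, Vhl(flox/flox) / CD11c (+/+), had the same floxed alleles without Cre, and Cre controls, Vhl(+/+) / CD11c (cre/+), had the same Cre with unmodified Vhl. Each genotype was represented by 3 pools of 5 to 7 untreated, sex-matched mice aged 8 to 12 weeks on a C57BL/6 background. Because Cre was driven by CD11c, deletion was not limited to macrophages. Each library is a pool, so differences between single mice were not visible.

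In most tissues a macrophage stops dividing when it matures, and MAF helps to hold it there. In mice, lifting this restraint lets macrophages divide for long periods while staying macrophages, and this depends on MYC and KLF4. Alveolar macrophages maintain themselves by local division and naturally have little MAF. BHLHE40 and BHLHE41 are related repressors that bind E-box sequences such as CACGTG, and mouse alveolar macrophages need them to keep their identity and to divide. PU.1, made from Spi1, and C/EBP beta, made from Cebpb, are lineage factors that open macrophage enhancers. KLF2 restrains inflammatory gene expression in myeloid cells, and ID2 has no DNA-binding domain of its own and blocks E proteins by binding to them. VHL marks the alpha subunits of the hypoxia-inducible factors (HIF) for degradation, and its loss leaves HIF active in normal oxygen.

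The 9 libraries held 18201116 to 25861174 reads. Values are normalized reads, meaning CPM (counts scaled to library size) after a further library factor, and are given as mean ± SD (n = 3 pools a genotype, n = 6 for both controls together). Vhl itself (ENSMUSG00000033933) averaged 2.23 ± 0.261 in Vhl knockouts, 18.1 ± 3.05 in floxed controls and 23.7 ± 1.69 in Cre controls, which fitted the labels. Of 20 alveolar macrophage markers, all were in the table, and their summed level was 41840 to 54490 in Vhl knockouts, 32520 to 36640 in floxed controls and 31730 to 36370 in Cre controls. Chil3, a secreted chitinase-like protein gene, carried that difference: without it the sums overlapped, at 16410 to 17330 in Vhl knockouts, 14520 to 16300 in floxed controls and 16070 to 18970 in Cre controls. The summed level of 15 dendritic cell markers was 201 to 212 in Vhl knockouts, 265 to 502 in floxed controls and 310 to 498 in Cre controls, with none at 0. The sums of 6 neutrophil markers overlapped between genotypes, at 154 to 532 in Vhl knockouts, 257 to 1068 in floxed controls and 151 to 507 in Cre controls. Mitochondrial genes took 1.77 to 2.39% of the reads in Vhl knockouts, 2.67 to 5.59% in floxed controls and 3.29 to 3.82% in Cre controls, so every Vhl knockout pool lay below every control pool. Floxed control 1 stood apart, with the highest neutrophil sum and the highest mitochondrial share.

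The RNA of 5 of the 9 factors was higher in Vhl knockouts than in both controls, and none was lower. Id2, Klf2, Myc, Bhlhe40 and Klf4 rose, by 1.09, 1.32, 0.79, 0.62 and 0.30 on the log2 scale. Bhlhe41, Spi1, Cebpb and Maf did not pass the test. A gene was called when limma on log2(value + 1), adjusted over all 12003 genes, gave an adjusted p under 0.05. By that rule 19.7% of all genes were called higher in Vhl knockouts than in both controls and 20.2% lower, so calls were common in this comparison. The same 5 factors were called higher against the floxed controls alone (17.5% of all genes were higher and 16.8% lower) and against the Cre controls alone (16.3% higher and 17.7% lower). In each of the 5, all Vhl knockout pools lay above all 6 control pools, a pattern seen in 19.3% of all genes. The median log2 difference was 0.31 over the 9 factors and -0.0022 over all genes. In bulk RNA, fewer cells of a type and less RNA per cell cannot be told apart. The part of the lower dendritic cell markers and of the lower mitochondrial share in these differences was not tested.

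**Figure D1:**
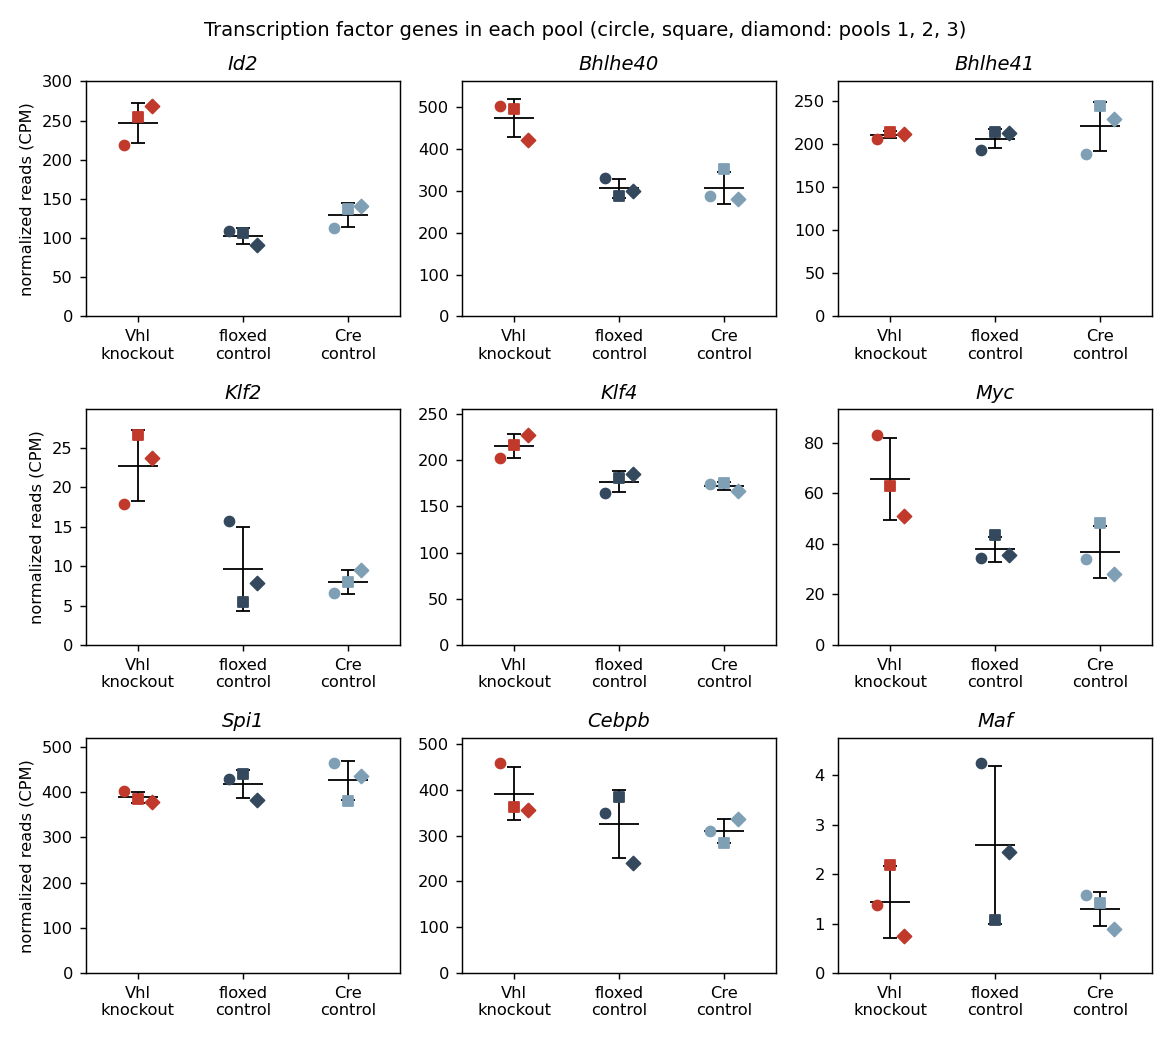
Normalized reads of each of the 9 factor genes (y axis, linear, from 0) in each pool (point shapes mark pools 1, 2 and 3) of Vhl knockouts, floxed controls and Cre controls, with the mean and SD as bars. Vhl knockout pools lie above every control pool for Id2, Bhlhe40, Klf2, Klf4 and Myc, and overlap control pools for Bhlhe41, Spi1, Cebpb and Maf.

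Of the 9 genes, 5 had an upstream sequence in the RefSeq table used (GRCm38.p6), which holds 250 bases before to 50 bases after each gene start. They were Id2, Bhlhe41, Klf2, Klf4 and Cebpb. Windows were searched on both strands for ACGTG and GCGTG, the core letters of HIF sites, and for CACGTG, the E-box that MYC and BHLHE40/41 can bind, which contains ACGTG on both strands. Over 32851 such windows, 19.6% held ACGTG, 32.4% held GCGTG and 7.15% held CACGTG. Shown are the upstream parts for Klf4 and Klf2, related factors that both rose and differ in these letters, and for Bhlhe41, which did not pass the test and holds the E-box. They lie at chr4:55532476-55532725 (minus strand), chr8:72318812-72319032 (plus strand) and chr6:145865559-145865670 (minus strand), are written 5′ to 3′, and capitals mark CACGTG.
Klf4: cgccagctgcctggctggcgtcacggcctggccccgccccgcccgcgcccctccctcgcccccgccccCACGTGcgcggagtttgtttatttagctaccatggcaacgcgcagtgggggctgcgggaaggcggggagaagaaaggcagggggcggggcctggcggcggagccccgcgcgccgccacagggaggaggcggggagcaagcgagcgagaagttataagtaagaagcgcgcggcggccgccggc
Klf2: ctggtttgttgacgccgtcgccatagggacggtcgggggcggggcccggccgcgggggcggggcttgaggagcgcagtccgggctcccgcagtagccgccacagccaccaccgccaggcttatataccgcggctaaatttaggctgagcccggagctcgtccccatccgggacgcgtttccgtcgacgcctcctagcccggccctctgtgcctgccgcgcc
Bhlhe41: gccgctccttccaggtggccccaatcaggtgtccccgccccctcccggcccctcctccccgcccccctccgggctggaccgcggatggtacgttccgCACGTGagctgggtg
The first base of CACGTG lay 182 bases before the RefSeq gene start in Klf4 and 153 bases before it in Bhlhe41. For Bhlhe41 that start is internal: the printed stretch ends 139 bases before it, next to the gene as annotated. The Bhlhe41 window also held GCGTG at 119 and 66 bases before the RefSeq start, inside the gene as annotated. The Cebpb window held GCGTG at 10 bases before its start. The Klf2 window held none of the searched letters. The Id2 window held none either, but it surrounds an internal start, with its bases (chromosome 12, 25096043 to 25096342, minus strand) inside the gene as annotated, and so does not show the sequence upstream of the whole gene. Such a match is a description of the letters and not evidence of binding.

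Id2, the inhibitor of E proteins, roughly doubled. Id2 (ENSMUSG00000020644, chromosome 12, 25093799 to 25097140, GRCm38) had 218.8, 254.7 and 268.3 normalized reads in Vhl knockout pools 1 to 3, against 109.7, 106.5 and 91.0 in floxed controls and 112.5, 136.7 and 140.9 in Cre controls. The lowest Vhl knockout pool was well above the highest control pool. The difference from both controls was 1.09 on the log2 scale (SE 0.0949, 95% interval 0.88 to 1.31, limma adjusted p = 1.38e-05). It was 1.26 against floxed controls (adjusted p = 1.94e-05) and 0.92 against Cre controls (adjusted p = 0.000158). Cre controls, at 130 ± 15.3, also lay above floxed controls, at 102 ± 9.97, in every pool, a log2 difference of 0.34 that did not pass adjustment (unadjusted p = 0.0115, adjusted p = 0.573 with limma). This contrast is also the test of whether the Id2 difference depends on the control used.

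Of the other ID inhibitors and their E protein partners, 5 were in the table, 1 was called higher and none lower, with a median log2 difference of -0.03 against -0.0022 over all genes. This was 20% called, against 39.8% of all genes. The gene called was Id3, a close relative of Id2, at 11.9 ± 3.58 in Vhl knockouts and 5.01 ± 2.36 in both controls (log2 difference 1.15, limma adjusted p = 0.000843). Its pools overlapped, since Cre controls averaged 7.03 ± 1.22 and floxed controls 3.00 ± 0.569. The E protein genes Tcf12 and Tcf3 were not called, at 55.5 ± 4.95 and 58.9 ± 3.37 in Vhl knockouts against 60.3 ± 4.18 and 56.8 ± 4.003 in both controls.

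The related repressors Bhlhe40 and Bhlhe41 parted: Bhlhe40 was about 1.54-fold higher in Vhl knockouts, while Bhlhe41 stayed within the range of the controls. Bhlhe40 (ENSMUSG00000030103, chromosome 6, 108660629 to 108666925) had 501.7, 496.2 and 420.3 normalized reads in Vhl knockouts, 330.9, 287.4 and 299.4 in floxed controls, and 288.3, 351.1 and 281.3 in Cre controls. Every Vhl knockout pool was above every control pool. The log2 difference from both controls was 0.62 (SE 0.0889, 95% interval 0.43 to 0.82, limma adjusted p = 0.000386), and the controls did not differ detectably from each other (log2 difference 2.71e-05, adjusted p = 0.9999). Bhlhe41 (ENSMUSG00000030256, chromosome 6, 145858243 to 145865558), the gene whose upstream E-box is printed above, had 206.1, 213.7 and 211.8 in Vhl knockouts, 192.9, 213.3 and 212.4 in floxed controls, and 188.5, 243.6 and 228.4 in Cre controls. The Vhl knockout pools lay inside the control range. Its log2 difference was -0.01 with a 95% interval of -0.18 to 0.16 (limma adjusted p = 0.917), which lies wholly below the interval of Bhlhe40. A direct test of the difference between the genes was not made.

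Both BHLHE factors feed back on the circadian clock by repressing E-box genes. Of the clock genes, 16 were in the table, with 4 called higher and 2 lower, and a median log2 difference of -0.15. This was 37.5% called, against 39.8% of all genes. Against floxed controls alone 2 were higher and 2 lower (25% called, against 34.3% of all genes, median -0.16). Against Cre controls alone 3 were higher and 2 lower (31.25% called, against 34.0% of all genes, median -0.035). Nfil3, a repressor of D-box clock output genes, had 144 ± 12.8 normalized reads in Vhl knockouts and 45.7 ± 5.99 in both controls (log2 difference 1.64). Npas2, a partner of ARNTL that can stand in for CLOCK, had 5.13 ± 0.983 in Vhl knockouts and 0.360 ± 0.283 in both controls (2.19). Every control pool of Npas2 was below 0.962, the level that each gene reached in at least 3 libraries. It is therefore in the table only through the Vhl knockouts. Per1, a core negative regulator, had 141 ± 31.1 in Vhl knockouts and 77.2 ± 22.6 in both controls (0.89). Csnk1e, a kinase of PER proteins, fell to 68.4 ± 2.93 in Vhl knockouts, against 83.0 ± 6.40 in both controls. Rora was not called, at 40.1 ± 2.20 in Vhl knockouts against 43.5 ± 4.22 in both controls.

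Klf2 and Klf4, zinc-finger factors of 1 family, both rose, Klf2 by more on the log2 scale and at a lower level per kb. Klf2 (ENSMUSG00000055148, chromosome 8, 72319033 to 72321656) had 17.9, 26.7 and 23.7 normalized reads in Vhl knockouts, 15.7, 5.43 and 7.84 in floxed controls, and 6.53, 8.01 and 9.55 in Cre controls. The pools did not overlap, and floxed control 1, the library that stood apart, was the closest to the Vhl knockouts. The log2 difference from both controls was 1.32 (SE 0.261, 95% interval 0.74 to 1.90, limma adjusted p = 0.00275), and 1.51 without floxed control 1 (adjusted p = 8.40e-05). Klf4 (ENSMUSG00000003032, chromosome 4, 55527143 to 55532466) had 201.8, 216.9 and 227.5 in Vhl knockouts, 163.9, 180.5 and 185.4 in floxed controls, and 173.7, 175.7 and 166.6 in Cre controls. All Vhl knockout pools were above all control pools by a narrow margin. The log2 difference was 0.30 (SE 0.0573, 95% interval 0.18 to 0.43, limma adjusted p = 0.00215). Against floxed controls alone it was 0.29 (adjusted p = 0.00802), and this call was lost in CPM without the library factor (0.21, adjusted p = 0.0671).

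Of the other Kruppel-like factors, 9 were in the table, with 5 called higher and 0 lower and a median log2 difference of 0.20. This was 55.6% called, against 39.8% of all genes. Against floxed controls alone 5 were called (55.6%, against 34.3% of all genes). Against Cre controls alone 2 were called, Klf7 and Klf9 (22.2%, against 34.0% of all genes), while Klf8 and Klf10 did not pass (adjusted p = 0.135 and 0.0708 with limma). The count fell to 2 in CPM without the library factor, to 2 without Vhl knockout 2 and to 3 without floxed control 2. The share of all genes called in those fits is not given here. Klf9, a glucocorticoid-responsive family member, had 30.6 ± 5.91 normalized reads in Vhl knockouts and 14.3 ± 2.21 in both controls (log2 difference 1.04). Klf7 had 47.2 ± 5.74 in Vhl knockouts and 31.9 ± 2.93 in both controls (0.55), Klf8 14.2 ± 1.78 in Vhl knockouts and 10.1 ± 2.04 in both controls (0.46), and Klf10, a TGF-beta-induced factor, 189 ± 19.8 in Vhl knockouts and 157 ± 9.49 in both controls (0.26). Klf6 and Klf13, the most abundant of those not called, had 293 ± 37.6 and 256 ± 33.4 in Vhl knockouts against 264 ± 18.7 and 233 ± 18.9 in both controls.

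Myc, a transcription factor that drives ribosome and nucleotide synthesis, rose with wide scatter between pools. Myc (ENSMUSG00000022346, chromosome 15, 61985391 to 61990374) had 83.1, 62.8 and 51.1 normalized reads in Vhl knockouts, 34.4, 43.5 and 35.5 in floxed controls, and 34.1, 48.1 and 28.0 in Cre controls. The lowest Vhl knockout pool was only just above the highest Cre control pool. The log2 difference was 0.79 against both controls (SE 0.180, 95% interval 0.39 to 1.196, limma adjusted p = 0.00603), 0.76 against floxed controls (adjusted p = 0.0179) and 0.83 against Cre controls (adjusted p = 0.0122). Without Vhl knockout 1 the difference from floxed controls was 0.58 and no longer passed (adjusted p = 0.0629), while that from both controls still did.

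MYC acts as a dimer with MAX, and MAX also pairs with antagonists. Of 12 genes of this network in the table, 3 were called higher and 2 lower (41.7%, against 39.8% of all genes), with a median log2 difference of 0.05. This total of 5 was 3 without Vhl knockout 1 and 2 without Vhl knockout 3, with the share of all genes called in those fits not given here. Mxi1, a MAX-binding antagonist of MYC and a known HIF target, rose to 183 ± 5.80 normalized reads in Vhl knockouts, against 75.2 ± 5.84 in both controls (log2 difference 1.27, limma adjusted p = 2.70e-07). Fbxw7, a ubiquitin ligase subunit that targets MYC for degradation, had 25.5 ± 3.18 in Vhl knockouts and 20.3 ± 1.01 in both controls (0.31). Mycl, a MYC paralog, had 0.534 ± 0.0838 in Vhl knockouts and 1.74 ± 0.661 in both controls (-0.80). Every Vhl knockout pool of Mycl was below 0.962, so it is in the table only through the controls. The antagonist gene Mxd3 had 4.72 ± 0.779 in Vhl knockouts and 6.95 ± 0.930 in both controls (-0.48). Mxd1 and Mlxip were not called, at 95.9 ± 22.5 and 67.5 ± 7.44 in Vhl knockouts against 73.4 ± 35.4 and 77.1 ± 9.99 in both controls.

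With both directions together, the ribosome biogenesis, nucleotide and polyamine genes commonly listed as MYC targets were called about as often as genes at large. Of 49, all in the table, 5 were called higher and 14 lower, which is 38.8% against 39.8% of all genes, with a median log2 difference of -0.09 against -0.0022 over all genes. The calls over all genes were split more evenly, at 19.7% higher and 20.2% lower. The total of 19 was 11 without Vhl knockout 2 and 9 without Vhl knockout 3. The share of all genes called in these smaller fits is not given here, so the fall cannot be set against it. The called genes with the smallest adjusted p were all lower. Ung, a uracil-DNA glycosylase, had 4.36 ± 0.671 normalized reads in Vhl knockouts and 9.59 ± 1.44 in both controls (-0.98). Ddx21, a nucleolar RNA helicase, had 133 ± 3.85 in Vhl knockouts and 176 ± 11.0 in both controls (-0.40), Wdr12, a ribosome assembly factor, 17.9 ± 1.34 in Vhl knockouts and 24.6 ± 0.840 in both controls (-0.43), and Ppat, the first enzyme of purine synthesis, 13.6 ± 1.23 in Vhl knockouts and 18.9 ± 1.03 in both controls (-0.44). The abundant nucleolar genes Ncl and Npm1 were not called, at 358 ± 3.39 and 295 ± 11.7 in Vhl knockouts against 361 ± 18.6 and 264 ± 19.4 in both controls.

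Klf2, Klf4, Myc and Id2 can also respond quickly to handling of cells, so immediate early and dissociation stress genes are given beside them. Of 20 such genes, 6 were called higher and 2 lower (40.0% called, against 39.8% of all genes), with a median log2 difference of 0.34. Against floxed controls alone 4 were higher and 5 lower (median 0.15), which is 45% called against 34.3% of all genes. Against Cre controls alone 7 were higher and 2 lower (median 0.49), which is 45% against 34.0% of all genes. Their summed level was 1957, 2290 and 2784 normalized reads in Vhl knockouts, 2092, 1847 and 2126 in floxed controls, and 1593, 1714 and 1858 in Cre controls. Among the Vhl knockout pools, Myc was highest in pool 1, which had the lowest of these sums. Klf2 was highest in pool 2, and Klf4 and Id2 in pool 3, which had the highest sum. Ier3, a survival gene of this group, had 82.2 ± 23.9 in Vhl knockouts and 9.47 ± 5.91 in both controls (3.13), and Jund, a JUN family gene, 175 ± 3.64 in Vhl knockouts and 124 ± 10.4 in both controls (0.50). Fosl1, which encodes a FOS family protein, had 2.31 ± 0.375 in Vhl knockouts and 0.438 ± 0.0881 in both controls (1.199). Like Npas2, Fosl1 was below 0.962 in every control pool and is in the table only through the Vhl knockouts. Hspa1a, a heat shock gene that shares reads with its near-identical copy Hspa1b, had 5.83 ± 2.39 in Vhl knockouts and 48.6 ± 32.9 in both controls (-2.68), and Fos, which was not called, 330 ± 145 in Vhl knockouts and 218 ± 66.5 in both controls. The part of handling in the differences of the 9 factors was not tested.

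Spi1, Cebpb and Maf, the lineage and maturation factors, were not called in any comparison with all 9 libraries. Spi1 (ENSMUSG00000002111, chromosome 2, 91082390 to 91115756) had 402.6, 383.5 and 378.7 normalized reads in Vhl knockouts, 429.0, 439.8 and 383.0 in floxed controls, and 463.5, 379.2 and 436.3 in Cre controls. The Vhl knockout pools overlapped the lower control pools. The log2 difference was -0.12 with a 95% interval of -0.28 to 0.05 (limma adjusted p = 0.237), so a change of the size seen for Bhlhe40 lies outside the interval.

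Cebpb (ENSMUSG00000056501, chromosome 2, 167688915 to 167690418) had 457.4, 362.2 and 354.5 normalized reads in Vhl knockouts, 348.2, 384.0 and 241.2 in floxed controls, and 309.1, 282.8 and 335.0 in Cre controls. All Vhl knockout pools were above the Cre controls, and they overlapped the floxed controls. The log2 difference from both controls was 0.31 (SE 0.141, 95% interval -0.0049 to 0.63, limma adjusted p = 0.110). That from Cre controls was 0.33 (adjusted p = 0.145) and was called in 1 of 16 alternatives, the fit without floxed control 3 (adjusted p = 0.0360). Cebpb shares 312 bases of exon with Tmem189 on the opposite strand, and whether reads were counted by strand is not given in the sources used. Tmem189 had 302 ± 7.03 in Vhl knockouts, 135 ± 10.00 in floxed controls and 134 ± 3.48 in Cre controls (log2 difference 1.16 against both, adjusted p = 1.68e-07), so reads from the shared exon cannot be told apart. Bhlhe40, Bhlhe41 and Maf also share 118, 1280 and 440 exon bases with antisense genes that were not in the table.

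Maf (ENSMUSG00000055435, chromosome 8, 115682942 to 115707794), the gene whose low level accompanies self-renewal, was close to the lower limit of the table. It had 1.37, 2.20 and 0.760 normalized reads in Vhl knockouts, 4.24, 1.08 and 2.45 in floxed controls, and 1.57, 1.41 and 0.904 in Cre controls. The pools overlapped, and the highest value was that of floxed control 1. The log2 difference was -0.22 with a wide 95% interval of -0.86 to 0.42 (limma adjusted p = 0.577), and it was -0.06 without floxed control 1 and -0.00 without Vhl knockout 3. At this level log2(value + 1) understates fold changes.

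**Figure D2:**
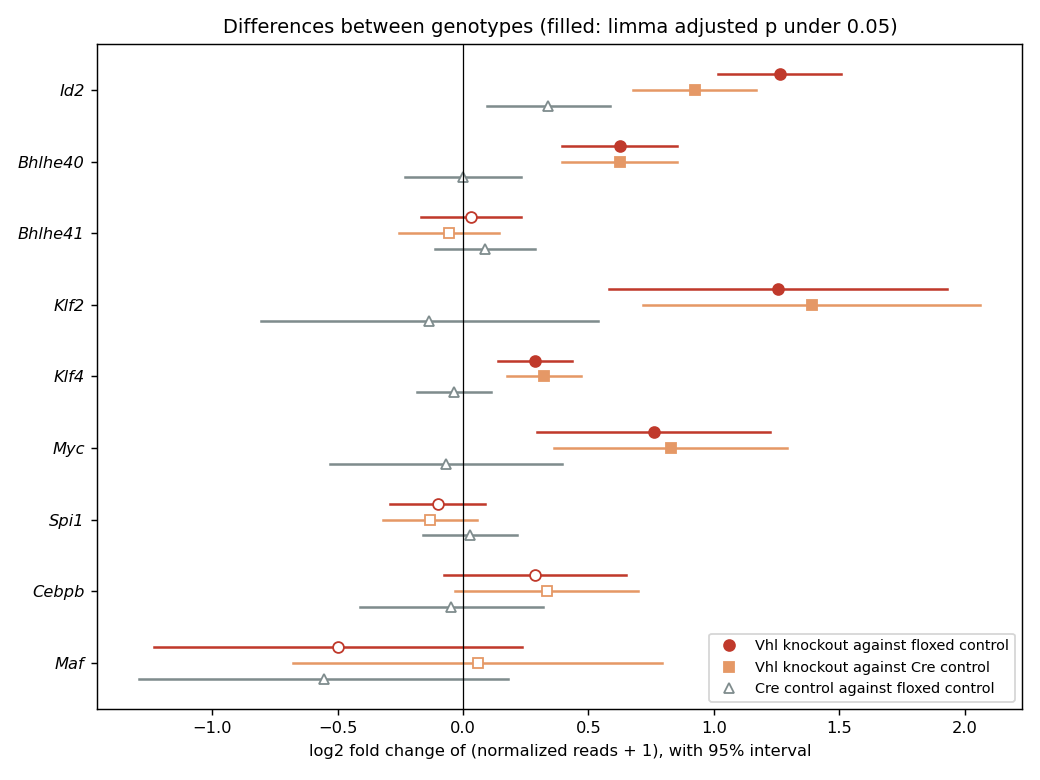
Log2 difference of (normalized reads + 1) with its 95% interval for each of the 9 factors (rows), for Vhl knockouts against floxed controls, Vhl knockouts against Cre controls, and Cre controls against floxed controls. Filled symbols passed the limma test at an adjusted p under 0.05: they are those of Id2, Bhlhe40, Klf2, Klf4 and Myc in both Vhl knockout comparisons, and none between the controls.

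The families of these lineage factors held genes that moved in both directions. Of 5 other genes listed as C/EBP factors in the table, 2 were called higher and 1 lower (60% called, against 39.8% of all genes, median log2 difference -0.0034). Cebpd, an inflammation-induced C/EBP factor, had 73.9 ± 4.08 normalized reads in Vhl knockouts and 30.2 ± 4.48 in both controls (1.27). Cebpz, listed by its name but not a true member of the family, had 66.5 ± 2.34 in Vhl knockouts and 58.8 ± 1.98 in both controls (0.18). Ddit3, a stress-induced family member, had 7.31 ± 1.66 in Vhl knockouts and 10.9 ± 1.202 in both controls (-0.53). Cebpa, the C/EBP factor of early myeloid commitment, was not called, at 396 ± 34.4 in Vhl knockouts against 400 ± 28.5 in both controls, nor was Cebpg, at 133 ± 12.4 against 133 ± 6.03. Of 4 other MAF factors, 1 was called higher and 1 lower (50% called, median -0.13). These were the small MAF genes Maff, at 77.9 ± 1.94 in Vhl knockouts and 47.0 ± 2.61 in both controls (0.72), and Mafg, at 47.6 ± 2.81 in Vhl knockouts and 64.2 ± 7.09 in both controls (-0.42). Mafk was not called, at 33.2 ± 1.02 in Vhl knockouts and 36.3 ± 2.39 in both controls.

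Of 15 other ETS factors, relatives of PU.1, 3 were called higher and 2 lower (median log2 difference -0.10, against floxed controls alone -0.05 and against Cre controls alone 0.13). These 5 are 33.3% of the list, against 39.8% of all genes. This total of 5 was 3 without Vhl knockout 1, without Vhl knockout 3 or without Cre control 3, with the share of all genes in those fits not given here. Etv5, an effector of growth factor signalling, showed the greatest difference of the 15, at 38.3 ± 5.74 normalized reads in Vhl knockouts and 3.30 ± 0.735 in both controls (3.20, limma adjusted p = 1.67e-07). Elk3 had 68.0 ± 2.76 in Vhl knockouts and 43.2 ± 4.27 in both controls (0.65), Elf1 127 ± 12.99 in Vhl knockouts and 98.5 ± 5.24 in both controls (0.36), and Elf4 132 ± 9.47 in Vhl knockouts and 150 ± 10.1 in both controls (-0.19). Etv6 and Gabpa were not called, at 77.1 ± 8.27 and 75.0 ± 4.79 in Vhl knockouts against 80.0 ± 3.59 and 69.5 ± 3.03 in both controls.

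Of 28 myeloid genes commonly listed as PU.1 targets, 3 were called higher and 8 lower (median log2 difference -0.16), which is 39.3% against 39.8% of all genes. By direction, 19.7% of all genes were called higher and 20.2% lower. Fcgr1, a high-affinity IgG receptor, had 21.0 ± 4.01 normalized reads in Vhl knockouts and 63.1 ± 6.70 in both controls (-1.55). Lyz2, the macrophage lysozyme, had 9229 ± 1106 in Vhl knockouts and 25630 ± 3759 in both controls (-1.47). Tlr4, the endotoxin receptor, had 227 ± 7.73 in Vhl knockouts and 165 ± 9.47 in both controls (0.46). The abundant macrophage genes Mpeg1 and Laptm5 were not called, at 4826 ± 106 and 3362 ± 78.4 in Vhl knockouts against 4704 ± 259 and 3319 ± 220 in both controls.

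Among 34 other transcription factors of macrophage identity, 10 were called higher and 12 lower (median log2 difference -0.12, against floxed controls alone -0.11 and against Cre controls alone 0.03). This was 64.7% called, against 39.8% of all genes. Irf5, which drives inflammatory macrophage genes, fell to 29.2 ± 1.14 normalized reads in Vhl knockouts, against 95.4 ± 11.5 in both controls (-1.67). The glucocorticoid receptor gene Nr3c1 had 328 ± 38.7 in Vhl knockouts and 178 ± 9.31 in both controls (0.88), and the LXR alpha gene Nr1h3 102 ± 7.18 in Vhl knockouts and 54.6 ± 5.29 in both controls (0.89). Tfe3, a regulator of lysosome genes, had 54.7 ± 1.72 in Vhl knockouts and 74.9 ± 1.79 in both controls (-0.45). Rxra and Tfec were not called, at 423 ± 15.3 and 111 ± 9.19 in Vhl knockouts against 390 ± 25.9 and 117 ± 5.72 in both controls.

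Markers of alveolar macrophages and of other cells were counted in the same way. Over all genes, 19.7% were called higher and 20.2% lower against both controls. These shares were 17.5% and 16.8% against floxed controls alone, and 16.3% and 17.7% against Cre controls alone. Of 20 alveolar macrophage markers, 6 were called higher and 4 lower (median log2 difference 0.09). Fabp4, a lipid chaperone, had 199 ± 20.3 normalized reads in Vhl knockouts and 89.5 ± 20.3 in both controls (1.17), and Krt79, a keratin, 187 ± 21.5 in Vhl knockouts and 400 ± 39.0 in both controls (-1.10). Of 15 dendritic cell markers, 14 were called lower and 0 higher (median -1.13). Against floxed controls alone 13 were lower and against Cre controls alone 10, with 0 higher in each. Fscn1 and Ccr7, markers of migratory dendritic cells, had 4.43 ± 1.04 and 4.31 ± 0.875 in Vhl knockouts against 43.5 ± 21.4 and 40.7 ± 21.0 in both controls. Xcr1, Clec9a, Cd209a and Il12b, which are among those called, were below 0.962 in every Vhl knockout pool and are in the table only through the controls. Cd24a was not called and made up most of the Vhl knockout sum. Without it the sums were 62.3 to 73.4 in Vhl knockouts and 141.2 to 352.4 in both controls. Of 12 interstitial macrophage and monocyte markers, 3 were called higher and 6 lower, with sums of 212 to 242 in Vhl knockouts and 237 to 278 in both controls. Without Fcgr4, which was called higher, the sums no longer overlapped. They were 81.2 to 108.7 in Vhl knockouts, 145.8 to 194.5 in floxed controls and 132.3 to 153.3 in Cre controls. The direction of these markers depended on the control, with 1 higher and 6 lower against floxed controls (median -0.80) and 3 higher and 2 lower against Cre controls (median 0.13). Ly6c2 was at 0 in at least 1 library. Of 6 neutrophil markers none was called. Of 6 B, T and NK cell markers 1 was called higher and 1 lower, with sums of 173 to 200 in Vhl knockouts and 195 to 272 in both controls, and Klrb1c was at 0 in at least 1 library. Cd2 made up most of these sums, and without it they were 14.9 to 25.1 in Vhl knockouts, 12.9 to 86.7 in floxed controls and 2.25 to 5.37 in Cre controls. Here too the count turned with the control, with 0 higher and 2 lower against floxed controls and 3 higher and 1 lower against Cre controls. Of 11 lung epithelial markers 2 were called higher and 3 lower, with sums of 342 to 404 in Vhl knockouts and 229 to 502 in both controls. Cdh1, the E-cadherin gene, rose, at 263 ± 11.9 in Vhl knockouts and 117 ± 20.5 in both controls (1.18), and without it the sums were 85.0 to 127 in Vhl knockouts, 108 to 352 in floxed controls and 192 to 274 in Cre controls. Epcam, an epithelial adhesion gene, fell to 26.6 ± 2.08 in Vhl knockouts, against 71.6 ± 22.1 in both controls. The part of these other cells in the differences of the 9 factors was not tested.

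**Figure D3:**
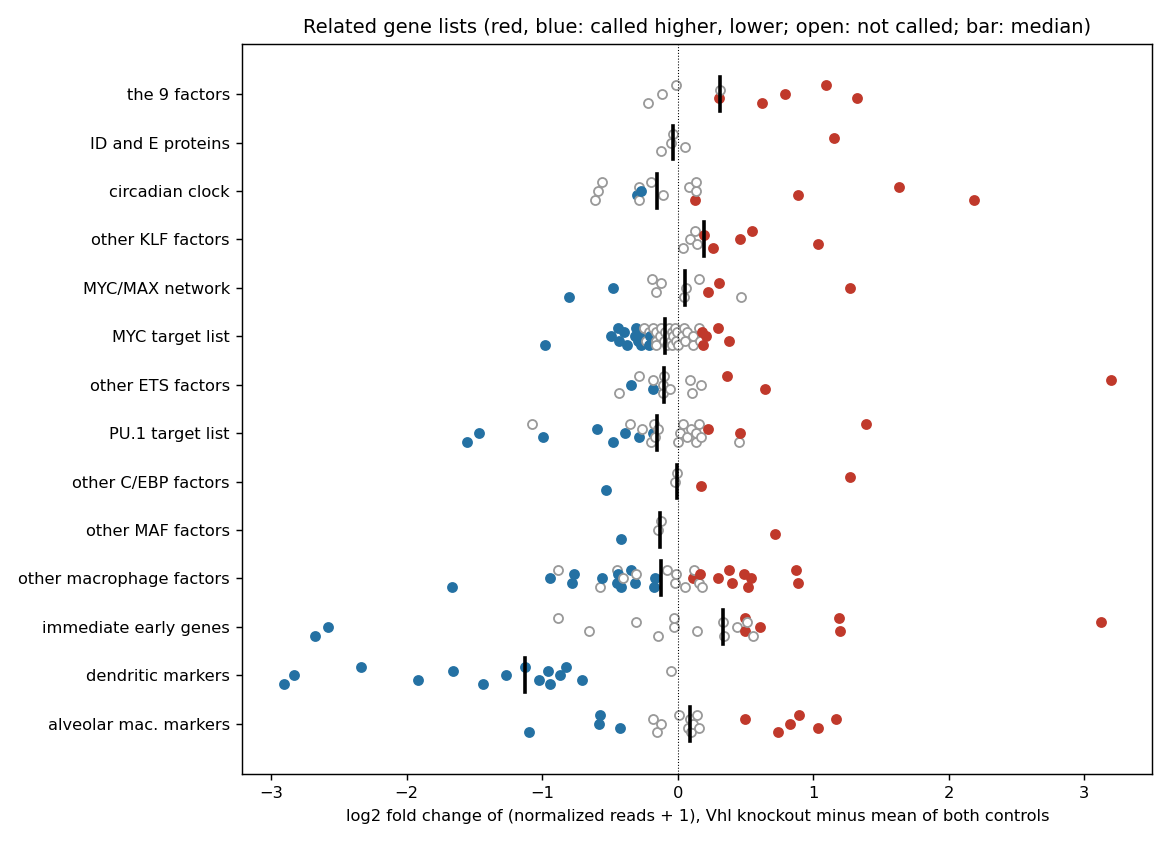
Log2 difference of (normalized reads + 1), Vhl knockouts minus the mean of both controls, for each gene (point) of the 9 factors and of related lists (rows), with the list median as a bar. Red and blue points were called higher and lower by limma. The 9 factors have 5 red points and no blue one, and the dendritic markers have 14 blue points and no red one.

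Levels can be set side by side only per length, and here per kb of exon (union of annotated exons). In Vhl knockouts the order was Cebpb at 260 ± 38.1 normalized reads per kb, Spi1 at 144 ± 4.70, Id2 at 101 ± 10.5, Bhlhe40 at 100.5 ± 9.66, Klf4 at 70.7 ± 4.24, Bhlhe41 at 31.3 ± 0.586, Myc at 24.2 ± 5.97, Klf2 at 12.3 ± 2.43 and Maf at 0.175 ± 0.0874. Only the neighbours Id2 and Bhlhe40 overlapped between pools. In floxed controls the order was Cebpb at 216 ± 49.4, Spi1 at 155 ± 11.2, Bhlhe40 at 65.0 ± 4.77, Klf4 at 57.9 ± 3.68, Id2 at 42.0 ± 4.09, Bhlhe41 at 30.7 ± 1.71, Myc at 13.9 ± 1.83, Klf2 at 5.22 ± 2.90 and Maf at 0.314 ± 0.193, and only Cebpb and Spi1 overlapped. Cre controls had the same order as floxed controls, with Id2 at 53.3 ± 6.28 and Klf4 at 56.4 ± 1.57 the only neighbours that overlapped. The lineage genes Cebpb and Spi1 were thus the most abundant of the 9 in each genotype, Maf was the least, and Id2 ranked above Klf4 in Vhl knockouts and below it in each control. The place of Id2 depended on the length used, since with the longest transcript it ranked below Bhlhe40 in Vhl knockouts and above Klf4 in both controls together.

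**Figure D4:**
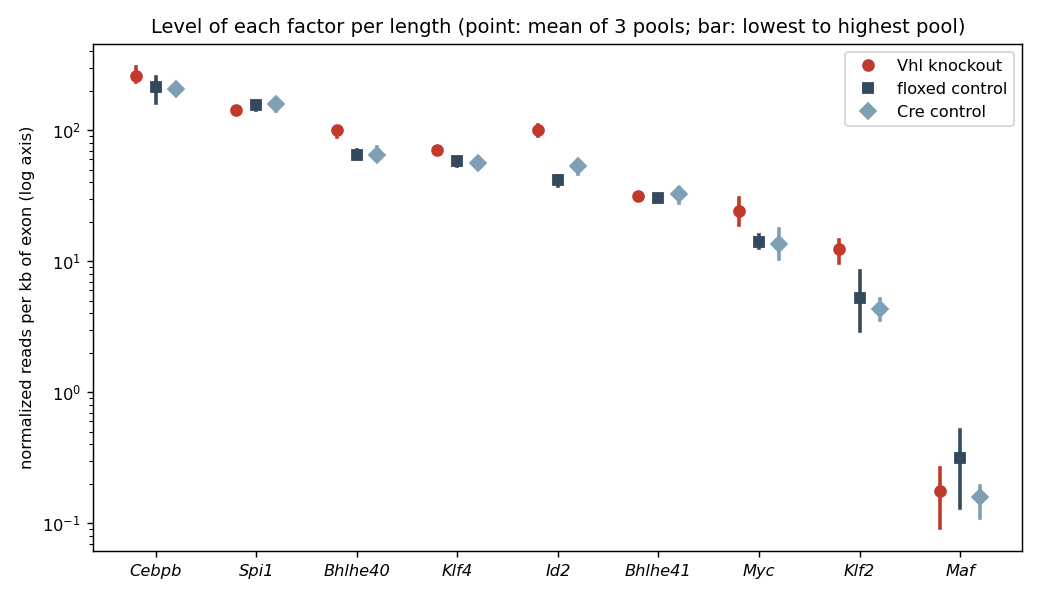
Level of each of the 9 factors (x axis) in normalized reads per kb of exon (y axis, log scale) in Vhl knockouts, floxed controls and Cre controls, as the mean of 3 pools with a bar from the lowest to the highest pool. Cebpb and Spi1 are the most abundant in each genotype and Maf the least, and Id2 is at 101 in Vhl knockouts against 42.0 in floxed controls and 53.3 in Cre controls.

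Between the controls, which differ in floxed alleles and Cre but both keep VHL, none of the 9 factors was called by limma, by edgeR or by DESeq2, and 1, Id2, had an unadjusted limma p under 0.05. Over all genes, 0.0667% were called higher in Cre controls than in floxed controls and 0.1% lower. Bhlhe40 and Bhlhe41 lie on the chromosome of Vhl, with starts 4.96 and 32.2 Mb from the Vhl start. Within 10 Mb of Vhl, 3 of 93 genes were called between the controls (3.23%), against 11 of 572 on chromosome 6 (1.92%) and 20 of 12003 overall (0.167%). In that window 51 of 93 genes (54.8%) were called between Vhl knockouts and both controls, against 39.8% over all genes. Against floxed controls alone 39.8% of the genes in the window were called (34.3% of all genes), and against Cre controls alone 46.2% (34.0% of all genes). Bhlhe40 was called in both of these comparisons. The part of the region around Vhl in the Bhlhe40 difference was not tested.

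For each factor, the genes with the most similar profile over the 9 libraries were found by the root mean square (RMS) difference between centred log2 profiles, among genes averaging at least 5 normalized reads. Nearest to Id2 were Ces2c (RMS 0.0935) and Serpinb6a (0.102), and nearest to Bhlhe40 were Hook2 (0.0874) and Agpat5 (0.0877). Klf2 was nearest to Atp8b2 and Zfp467 (0.213 each), Klf4 to Jmjd8 (0.0357) and N4bp1 (0.0398), and Myc to Pla2g12a (0.189) and Plau (0.195). Bhlhe41 was nearest to Cul3 (0.0294) and Slx4ip (0.0443), Spi1 to Urm1 (0.0308) and Rtcb (0.0396), Cebpb to Nfkbia (0.0811) and Rpl14 (0.0945), and Maf to Ccnd1 (0.239) and Tpcn1 (0.243). No factor of the 9 was among the nearest genes of another. Only 2 of 9829 genes were kept for each factor, and Maf, averaging below 5, could not be listed. This absence therefore does not show that the factors had unlike profiles.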

How the data were processed

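RNA from 9 alveolar macrophage pools was sequenced as single reads of 61 bases after an RNA integrity value above 8, per the labels' protocols. The submitters' processing notes name the tools RSEM 1.2.3, cutadapt 1.3 and CASAVA 1.8.2 and the GRCm38 build. Annotation and strand setting are not given in the sources used. As deposited by the authors, the data are signal values in 1 table, 12003 genes by 9 libraries, each a whole read count times 1 library factor (CPM after a TMM factor). All values (100%) gave whole reads within 0.01 read. A shift shared by all genes is invisible after such scaling. Each gene reached 0.962 in at least 3 libraries. A read was worth 0.0400 to 0.0565 normalized reads, and a count of 0 allows 3 reads, counting error only.

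GENCODE symbols named 11935 of the identifiers. Values were tested as log2(value + 1) with limma 3.58.1 in R 4.3.3 (empirical Bayes with trend, 1 mean per genotype, two-sided, Benjamini-Hochberg over all genes), since the table holds scaled values. Alternatives were pseudocounts of 0.5 and 0.1, a mean of at least 1, no library factor, edgeR 4.0.16 and DESeq2 1.42.0 on the recovered counts, a replicate block, and each library left out. P-values measure the spread between pools. The 9 within-genotype library pairs differed beyond counting noise. The fit was tested on simulated data.

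The 9 factors and the 17 lists were chosen with earlier results of these data known. Named were the factors, Vhl, from each main list up to 4 called members (lowest adjusted p first) and up to 2 abundant ones not called (fewer from the marker lists), and each factor's 2 nearest profiles. Tmem189 was named after its values were seen, for its overlap with Cebpb. Some genes that the naming rule picked are not reported here. Marker sums without each list's most abundant gene were added after the values were seen.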

Additional observations from a re-analysis of the deposited data

How the results depend on the processing

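Against both controls, each of the 9 factors kept its side of the threshold under all 16 alternatives, and each kept its direction except Bhlhe41, which was not called in any and ranged from -0.07 to 0.03 on the log2 scale. The log2 difference ranged from 1.03 to 1.18 for Id2, 0.57 to 0.71 for Bhlhe40, 1.17 to 1.51 for Klf2, 0.25 to 0.35 for Klf4, 0.61 to 0.96 for Myc and 0.19 to 0.38 for Cebpb, and the adjusted p of Cebpb from 0.0522 to 0.372. The pool numbers were not taken as pairs, since correlations of same-numbered libraries ran from -0.0934 to 0.524 and only 6 of 9 pairs were over 0.1, although the pool 1 libraries did deviate together (0.202 to 0.524). Not every library correlated best with its own number. With the replicate block, the same number of factors was called against both controls, and 59 genes were lower in Cre controls than in floxed controls, against 12 without it. DESeq2 called 25 genes higher and 49 lower in Cre controls than in floxed controls, against 8 and 12 with limma. With each library left out in turn, these counts ran from 6 to 16 and from 7 to 17. Called members ran from 2 to 7 for the MAX network, 9 to 20 for the MYC target list, 2 to 5 for the other KLF factors and 3 to 5 for the other ETS factors, and KLF members were 2 without the library factor, which shifted the median log2 difference of all genes by -0.05. The cause of these changes was not tested, and the list counts are not set beside the share of all genes called in the same fits. Depth limits Maf, where 1 read is worth up to 0.0565 normalized reads, more than the other factors.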
